A study of Mus musculus with 6 samples.

Results

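TAF4b peaks centred 101 to 1000 bp upstream of a transcription start site (TSS) were described in mouse fetal oocytes. They were chosen by their deposited distance to the nearest TSS, from -1000 to -101 bp, and by nothing else. This gave 282 of the 983 peaks of TAF4b replicate 1 (28.7%) and 348 of the 1111 peaks of TAF4b replicate 2 (31.3%), or 630 of the 2094 rows of both lists. Peaks centred 0 to 100 bp upstream, 460 in replicate 1 and 560 in replicate 2, are the comparison throughout and are called proximal. The libraries were made by CUT&RUN, in which a nuclease tethered to an antibody releases DNA next to its target for sequencing. All came from GFP-positive cells sorted from gonads of female embryos at E16.5, labelled C57BL/6 in strain and wild type for Taf4b. The embryos carried an Oct4-EGFP transgene, a germ cell reporter, from matings of mice homozygous for it (B6;129S4-Pou5f1tm2Jae/J). The series has 6 libraries, 2 each for TAF4b, H3K4me3 and IgG. Neither the pooling of animals nor their assignment to libraries is given in the labels, and lists of DNA peaks hold no cell type markers against which the sort could be checked.

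TFIID is the general transcription factor that recognises core promoters and nucleates assembly of the RNA polymerase II preinitiation complex. TAF4b is a gonad-enriched paralogue of its subunit TAF4, and female mice that lack it lose oocytes early and are infertile. H3K4me3 is a histone mark of active and poised promoters, and TFIID can bind it through its TAF3 subunit. The core promoter lies immediately around the TSS, while the stretch farther upstream, where the peaks described here are centred, usually carries the binding sites of sequence-specific factors.

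Each list was analysed on its own. A peak has a position, the authors' peak score and a Focus Ratio, a fraction by which the peak caller describes how sharply reads are arranged about a peak's centre. The lists give no read totals, so depth is unknown, and scores of the 2 lists may be on different scales. IgG was not analysed here, so no background signal stands beside the values. Each test below therefore sets 2 position classes of the same library against each other. It covers counting error only, because peaks of 1 library do not replicate an experiment. The labels do not say that the replicates came from separate animals. The test of each pair of shares was Fisher's exact test (two-sided), with p adjusted by Benjamini-Hochberg over 8 tests (4 measures in 2 lists) and a threshold of 0.05. The deposited files name Ensembl transcripts and no genes, and none of the members' transcripts could be matched to a gene name, so regions are given by GRCm39 position and nearest transcript.

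The peaks upstream of -100 bp formed the shoulder of the main TAF4b cluster and a thin tail behind it. Their median distance was -148.5 bp in replicate 1 (quartiles -226 and -121 bp) and -152 bp in replicate 2 (-212 and -121 bp). Within 200 bp of the TSS were 204 of the 282 peaks of replicate 1 (72.3%) and 248 of the 348 of replicate 2 (71.3%). Within 500 bp were 264 (93.6%) and 332 (95.4%). Only 18 peaks of replicate 1 and 16 of replicate 2 lay 501 to 1000 bp upstream, and the farthest were centred at -907 and -986 bp. Peak widths were fixed at 90 bp in replicate 1 and 134 bp in replicate 2. No peak of the upstream group therefore covered its TSS, and the closest edges stood 56 and 34 bp from it. In the proximal group 220 of 460 and 372 of 560 peaks covered the TSS. The authors' annotation placed all 282 and all 348 upstream peaks in its promoter class, and likewise all 460 and all 560 proximal peaks. Both groups were chosen by distance to a TSS, so the class does not set them apart.

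**Figure D1:**
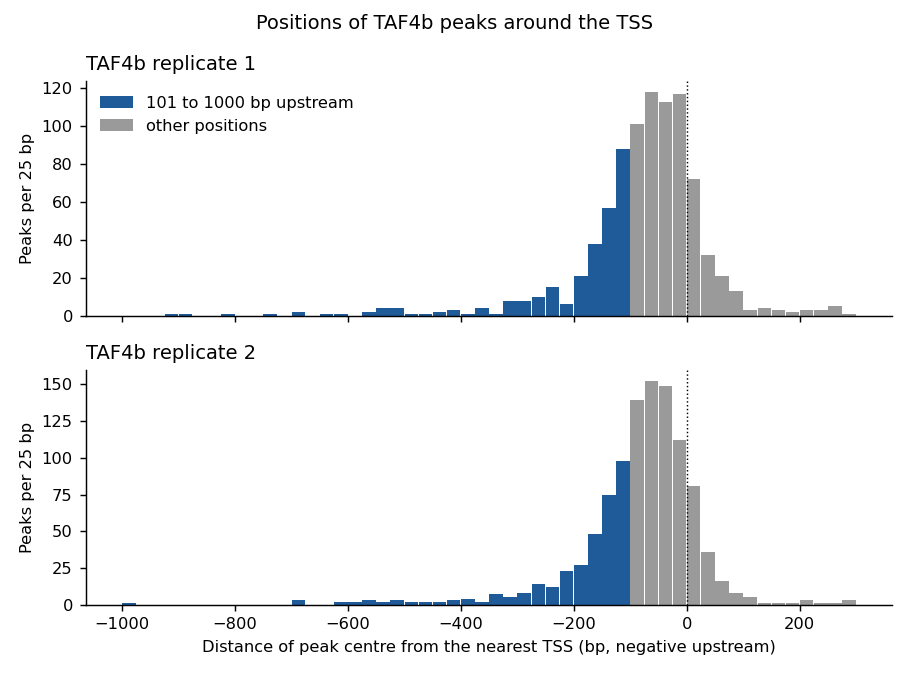
Number of TAF4b peaks per 25 bp of distance from the nearest TSS (negative upstream), with peaks 101 to 1000 bp upstream in blue and other positions in grey, for each replicate. Counts fall from 88 and 98 peaks in the bin from -125 to -101 bp to at most 3 peaks per bin beyond -600 bp.

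The near limit of the group does not fall at a gap in the data. In replicate 1, 30 peaks lay at -110 to -101 bp and 32 at -100 to -91 bp, with median scores of 8.85 and 8.47. In replicate 2 the counts were 55 and 35 and the median scores 19.3 and 17.2. Over 25 bp inside and outside the limit, the median scores were 8.85 and 7.7 in replicate 1, and 20.3 on both sides in replicate 2. Several peaks lay at each of these positions, and those named have the highest score there. Just inside, at -101 bp, was chromosome 4 at 94940515 to 94940605 (replicate 1 score 26.2). For replicate 2 it was chromosome 17 at 35383907 to 35384041 (score 37.5). The lowest scores at -101 bp were 6.16 and 16.2. Just outside, at -100 bp, the highest were chromosome 17 at 46867156 to 46867246 (replicate 1 score 15.4) and chromosome 4 at 108857685 to 108857819 (replicate 2 score 25.4). The lowest scores at -100 bp were 8.85 and 14.2. At the far limit the lists are nearly empty, and the first peaks beyond it lay at -1099 and -1161 bp, with scores of 6.16 and 13.2.

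Upstream peaks scored higher than proximal peaks in both libraries. In replicate 1 the upstream scores ran from 5.39 to 28.9 with a median of 8.66, and the proximal scores from 4.62 to 24.6 with a median of 7.7. In replicate 2 they ran from 12.2 to 45.7 with a median of 20.3, against 12.2 to 55.8 with a median of 18.3. The ranges overlap almost wholly, so the difference is one of proportions. A score above the median of the peaks compared (8.08) was found for 158 of 282 upstream peaks of replicate 1 (56.0%, exact 95% interval 50.02 to 61.9%) and for 196 of 460 proximal ones (42.6%, 38.0 to 47.3%). Over all 983 peaks of the list the share was 43.9%. The odds ratio was 1.72 (1.26 to 2.34, Fisher's exact test, adjusted p = 0.00195). In replicate 2 (median 19.3) the shares were 178 of 348 (51.1%, 45.8 to 56.5%) and 232 of 560 (41.4%, 37.3 to 45.6%), and 43.7% over the whole list. The odds ratio was 1.48 (1.12 to 1.96, Fisher's exact test, adjusted p = 0.0131).

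Of the 3 upstream windows, the nearest had the highest share of scores above the median in both lists. From 101 to 250 bp upstream, 57.8% of 225 peaks in replicate 1 and 54.4% of 283 in replicate 2 were above the median. From 251 to 500 bp the shares were 48.7% of 39 and 38.8% of 49, and from 501 to 1000 bp 9 of 18 and 5 of 16 (31.25%). With the group limited to the 78 and 100 peaks more than 200 bp upstream, neither list passed the threshold. The odds ratios were then 1.40 (0.84 to 2.35, Fisher's exact test, adjusted p = 0.36) and 1.08 (0.69 to 1.70, adjusted p = 0.942). In 50 bp steps, the median score of replicate 1 was 8.66 from -300 to -251 bp and 8.47 from -250 to -151 bp, in both steps. It was 8.85 from -150 to -101 bp, 8.08 from -100 to -51 bp and 7.7 from -50 to -1 bp. In replicate 2 it was 18.3 from -300 to -251 bp and 22.3 from -250 to -151 bp, in both steps. It was 19.3 both from -150 to -101 bp and from -100 to -51 bp, and 18.3 from -50 to -1 bp. Replicate 2 thus had no step in the median at the near limit on this scale.

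**Figure D2:**
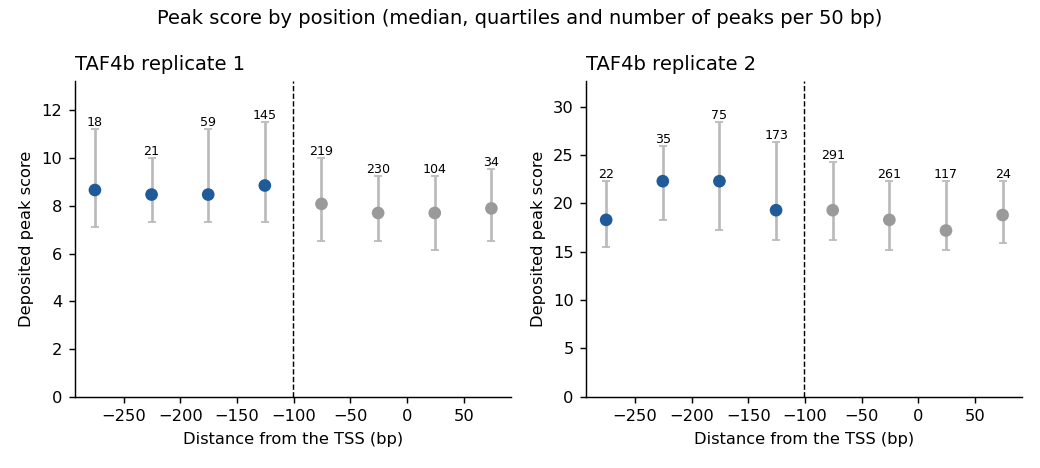
Deposited peak score (median and quartiles) in 50 bp steps of distance from the TSS, per replicate, with the number of peaks above each bar. Medians left of the dashed line at -100 bp are 8.47 to 8.85 in replicate 1 and 18.3 to 22.3 in replicate 2, and those right of it are 7.7 to 8.08 and 17.2 to 19.3.

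Upstream peaks were also less sharply focused. Focus Ratios in replicate 1 ran from 0.515 to 0.9 with a median of 0.6605 upstream, and from 0.514 to 0.889 with a median of 0.679 in the proximal group. In replicate 2 they ran from 0.488 to 0.824 with a median of 0.66, against 0.455 to 0.882 with a median of 0.6795. A ratio above the common median (0.674) was held by 122 of 282 upstream peaks of replicate 1 (43.3%, 37.4 to 49.3%) and 245 of 460 proximal ones (53.3%, 48.6 to 57.9%), and by 50.4% of the whole list. The odds ratio was 0.67 (0.49 to 0.91, Fisher's exact test, adjusted p = 0.0184). In replicate 2 (median 0.667) the counts were 154 of 348 (44.3%, 39.0 to 49.6%) and 297 of 560 (53.0%, 48.8 to 57.2%), with 49.3% over the list. The odds ratio was 0.70 (0.53 to 0.93, Fisher's exact test, adjusted p = 0.0184). With 4 score groups of each list as strata, the odds ratios were 0.65 and 0.68 (exact Mantel-Haenszel test, adjusted p = 0.00945 for both). Among the 78 and 100 peaks beyond 200 bp they were 0.58 and 0.54, and the adjusted p of 0.0983 and 0.0524 missed the threshold (Fisher's exact test).

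The least focused upstream peaks were on chromosome 1 at 59521214 to 59521304 in replicate 1 (ratio 0.515, -324 bp) and on chromosome 7 at 44579068 to 44579202 in replicate 2 (0.488, -215 bp). Both lay in an H3K4me3 region of replicate 1. The most focused of replicate 1 was on chromosome 14 at 120715651 to 120715741 (0.9, -160 bp), 432329 bp from the nearest region. In replicate 2 a peak on chromosome 7 at 45273074 to 45273208 (0.824, -676 bp), 81427 bp from a region, had the highest ratio. An upstream peak of replicate 2 inside an H3K4me3 region had the same ratio of 0.824. In replicate 1 the ratios inside regions reached 0.895, so high ratios were found on both sides.

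Agreement between the TAF4b libraries was examined by overlap of at least 1 bp. In replicate 1, 152 of the 282 upstream peaks overlapped a peak of replicate 2 (53.9%, 47.9 to 59.8%), against 212 of 460 proximal peaks (46.1%, 41.5 to 50.8%) and 43.6% of the list. The odds ratio of 1.37 (1.00 to 1.86) did not pass the threshold after adjustment (Fisher's exact test, p = 0.0413, adjusted p = 0.0551). In replicate 2, 144 of 348 upstream peaks overlapped a peak of replicate 1 (41.4%, 36.2 to 46.8%), against 222 of 560 (39.6%, 35.6 to 43.8%) and 38.6% of the list (odds ratio 1.07, 0.81 to 1.42, Fisher's exact test, adjusted p = 0.716). The replicate 1 value passed without the 18 peaks beyond 500 bp, at an odds ratio of 1.42 (Fisher's exact test, adjusted p = 0.0335), and was 1.00 (adjusted p = 1) for peaks beyond 200 bp.

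Agreement followed the score in both position classes. In replicate 1, 8 of 53 upstream peaks in the lowest of the list's 4 score groups were shared (15.1%) and 75 of 91 in the highest (82.4%). The proximal shares in these groups were 28.8% and 78.5%. In replicate 2 the upstream shares were 14.5% in the lowest group and 68.3% in the highest, and the proximal ones 16.9% and 70.3%. Stratified by the 4 score groups, the odds ratios were 1.05 (0.74 to 1.48, exact Mantel-Haenszel test, adjusted p = 0.80) and 0.86 (0.63 to 1.18, adjusted p = 0.484). Shared upstream peaks had median scores of 10 in replicate 1 and 24.3 in replicate 2, and the other upstream peaks 7.31 and 18.3.

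Many shared peaks straddled the limit at 100 bp. The 152 and 144 shared rows formed 181 pairs, of which 115 had both rows in the upstream group. These 115 were 40.8% of the upstream peaks of replicate 1 and 33.0% of those of replicate 2. In 36 pairs the replicate 1 peak was upstream and the replicate 2 peak proximal, and in 29 the reverse. In 1 more the replicate 2 peak lay downstream of the TSS of another transcript. The nearest transcript was the same for 34 of the 37 pairs with only the replicate 1 row upstream. For those with only the replicate 2 row upstream it was the same in 28 of 29. The upstream row of such a pair was never farther out than -175 bp in replicate 1 or -163 bp in replicate 2. Among the 115 pairs the centres were a median of 23 bp apart (quartiles 10 and 46 bp, highest 110 bp), and 92 were within 50 bp. Pairs with both rows proximal had a median of 19 bp. The nearest transcript was the same in both lists for 111 of the 115. Across the 115 pairs, scores of the 2 libraries had a rank correlation (Spearman) of 0.48 and a linear one (Pearson) of 0.39, a description over peaks that share their libraries. For the 161 pairs with both rows proximal these were 0.42 and 0.54, and the differences were not tested. In 41 of the 115 upstream pairs both rows were above the 75th percentile of their list. The same count was not made for proximal pairs, and sharing rose with score in both classes. It therefore does not set upstream pairs apart.

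**Figure D3:**
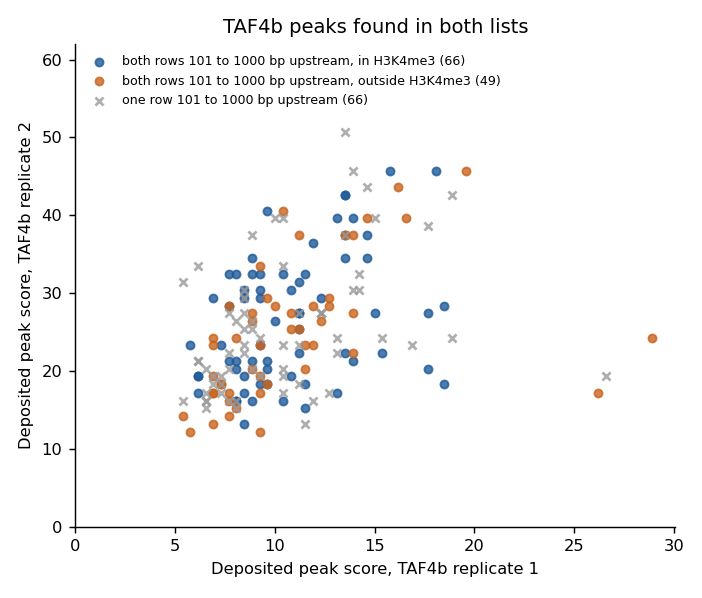
Deposited score in TAF4b replicate 1 (x) and replicate 2 (y) for the 181 shared pairs with at least 1 row 101 to 1000 bp upstream; circles have both rows there, 66 in an H3K4me3 region (blue) and 49 outside (orange), and crosses have 1 row there. Circles in H3K4me3 regions reach a replicate 1 score of 18.5 and those outside 28.9, both reach 45.7 in replicate 2, and the replicate 1 scores of 26.2 and 28.9 stand beside replicate 2 scores of only 17.2 and 24.3.

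The strongest upstream peaks found in both libraries were ordered by percentile of score, averaged over the 2 lists. First was chromosome 14 at 20979267 to 20979357 in replicate 1 and 20979250 to 20979384 in replicate 2. It was centred 154 and 149 bp before the start of ENSMUST00000226113, scored 19.6 and 45.7, and was 399 bp from the nearest H3K4me3 region. Second was chromosome 3 at 38539109 to 38539199, -161 and -171 bp from ENSMUST00000120875, with scores of 18.1 and 45.7 and inside an H3K4me3 region of replicate 1. The third, on chromosome 17 at 57338706 to 57338796, was centred farther out, at -229 and -280 bp from ENSMUST00000233480, with scores of 15.8 and 45.7. All 3 had the highest replicate 2 score in the group. The 10 highest ranks had centres from -106 to -280 bp. H3K4me3 regions of replicate 1 held 6 of the 10 and regions of replicate 2 none of them.

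The highest score of the whole replicate 1 list was also an upstream peak, a case chosen after its values were seen. It lay on chromosome 8 at 71151435 to 71151525, -119 bp from ENSMUST00000095267. Its score was 28.9 in replicate 1, and in replicate 2 it was centred 2 bp away with a score of 24.3 (percentile 75.5). No H3K4me3 region was closer than 25246 bp. The peak at -101 bp on chromosome 4 named above was likewise high in replicate 1 (26.2) and below the median in replicate 2 (17.2, percentile 39.3), with its centre 44 bp farther upstream there. Of the pairs that straddle the limit, the first in rank was chromosome 17 at 36152228 to 36152318, at -134 and -83 bp from ENSMUST00000082337 with scores of 18.9 and 42.6.

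Some strong upstream peaks were found in 1 library only. In replicate 1 the highest was chromosome 2 at 3285026 to 3285116 (score 15.8, percentile 96.5), -178 bp from ENSMUST00000081932. It overlapped an H3K4me3 region of replicate 2 and none of replicate 1. Next in replicate 1, tied at a score of 12.7, was chromosome 14 at 21550582 to 21550672 (-294 bp), which overlapped regions of both H3K4me3 lists. Tied with it was chromosome 7 at 19449724 to 19449814 (-406 bp), which overlapped a region of H3K4me3 replicate 1 only. In replicate 2 the highest was chromosome 9 at 65047898 to 65048032 (score 41.6, percentile 98.0), -506 bp from ENSMUST00000034961 and 22286 bp from any H3K4me3 region. Absence from the other list is not absence of signal, since only called peaks were available.

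H3K4me3 overlap was lower upstream than at proximal positions in TAF4b replicate 2, and no difference passed in replicate 1. In replicate 2, 181 of 348 upstream peaks lay over an H3K4me3 region of at least 1 list (52.0%, 46.6 to 57.4%), against 358 of 560 proximal peaks (63.9%, 59.8 to 67.9%) and 58.4% of the list. The odds ratio was 0.61 (0.46 to 0.81, Fisher's exact test, adjusted p = 0.00195). In replicate 1 the shares were 158 of 282 (56.0%, 50.02 to 61.9%) and 263 of 460 (57.2%, 52.5 to 61.7%), with 55.0% over the list (odds ratio 0.95, 0.70 to 1.30, Fisher's exact test, adjusted p = 0.761). Whether the odds ratios of the 2 lists differ was not tested. The overlaps came almost wholly from H3K4me3 replicate 1, with 8129 regions, which held 156 of the 158 and 179 of the 181 peaks. H3K4me3 replicate 2, with 320 regions, held 12 and 16. With replicate 2 regions alone the contrast in TAF4b replicate 2 gave 0.66 (0.34 to 1.24, adjusted p = 0.261 by Fisher's exact test). With only the H3K4me3 regions that scored above their list's median it was 0.76 (0.58 to 1.01, Fisher's exact test, adjusted p = 0.0734). The call was also lost for the 100 peaks beyond 200 bp, at 0.59 (Fisher's exact test, adjusted p = 0.0741). The replicate block, with the 2 TAF4b lists as strata and only same-numbered H3K4me3 regions counted, gave 0.88 (exact Mantel-Haenszel test, adjusted p = 0.346). This is not a like-for-like check of 0.61, since it joins both lists and sets TAF4b replicate 2 against the 320 regions alone.

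The share in H3K4me3 regions was lowest at the far end of the window. From 501 to 1000 bp upstream it was 33.3% (6 of 18, 13.3 to 59.0%) in replicate 1 and 31.25% (5 of 16, 11.0 to 58.7%) in replicate 2. From 101 to 250 bp it was 57.3% (50.6 to 63.9%) and 53.0% (47.0 to 58.9%), and from 251 to 500 bp 59.0% (42.1 to 74.4%) and 53.1% (38.3 to 67.5%). In replicate 2 the share was below the proximal 63.9% in all 3 upstream windows, and in replicate 1 only the farthest window was below the proximal 57.2%. These windows were not tested, and the farthest hold fewer than 20 peaks each.

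**Figure D4:**
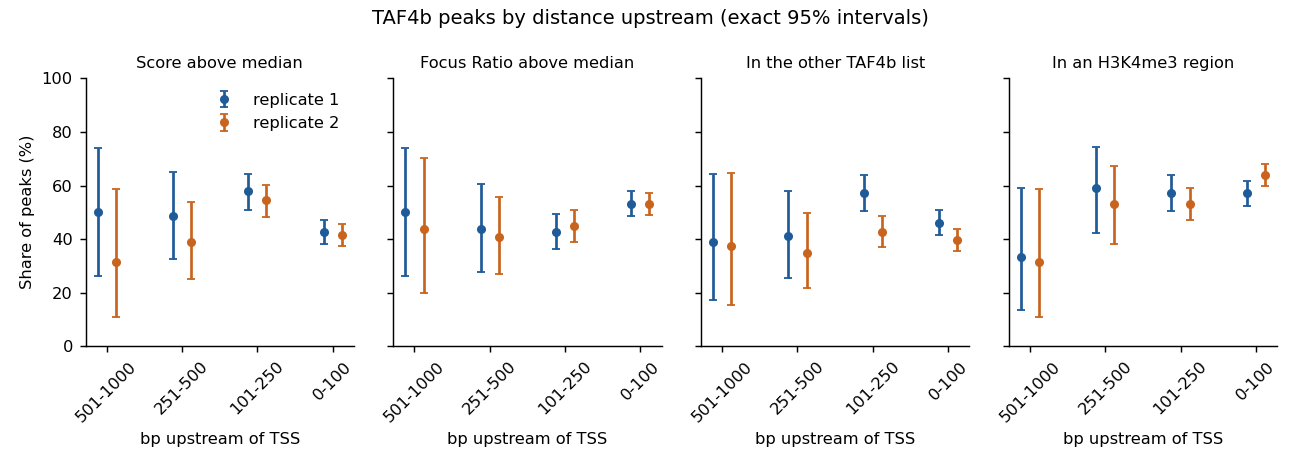
Share of TAF4b peaks (%, exact 95% intervals) in each window of distance upstream of the TSS, for replicate 1 (blue) and replicate 2 (orange), in 4 panels for score and Focus Ratio above the median, presence in the other TAF4b list and overlap with H3K4me3. Scores above the median reach 57.8% and 54.4% at 101 to 250 bp against 42.6% and 41.4% at 0 to 100 bp, and intervals widen beyond 250 bp.

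Where an upstream peak lay in a mark region, the region was displaced upstream too. The regions of H3K4me3 replicate 1 that held upstream peaks had their centres at a median of -57 bp from their nearest TSS for TAF4b replicate 1 (155 regions) and -59.5 bp for replicate 2 (178 regions). Regions that held proximal peaks were centred at -4 bp in both (257 and 354 regions). The overlap with an upstream peak itself selects such regions. Their median widths were 796 and 793 bp, against 777 and 720 bp at proximal peaks, and their median H3K4me3 scores were 69.6 and 70.8, against 65 and 61.5. Where the strand of the transcript could be worked out, the region covered the TSS as well in 109 of 133 cases for replicate 1 (82.0%) and in 122 of 148 for replicate 2 (82.4%). The corresponding proximal counts were 155 of 162 (95.7%) and 216 of 225 (96.0%). The strand was known only for transcripts with at least 2 listed features, and none of these differences was tested.

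Most upstream peaks outside the called H3K4me3 regions had no region within 10 kb, as was the case for most proximal ones. The lists hold 8129 and 320 called regions, so a peak outside them is not shown to lack the mark. Of the 124 such peaks of replicate 1, 42 had a region within 1 kb (33.9%) and 75 had none within 10 kb (60.5%). Of the 167 of replicate 2 the counts were 44 (26.3%) and 112 (67.1%). Of proximal peaks outside the called regions, 135 of 197 (68.5%) and 126 of 202 (62.4%) had none within 10 kb. The upstream share was thus the lower in replicate 1 and the higher in replicate 2, a difference that was not tested. Score by the mark was not tested. Median scores in and outside H3K4me3 regions were 8.85 and 8.08 in replicate 1, and 20.3 and 19.3 in replicate 2. Peaks both shared and in a region had the highest medians, 10.4 (88 peaks) and 27.4 (81 peaks), and shared peaks outside a region had 9.62 (64 peaks) and 23.3 (63 peaks). Of the 115 pairs with both rows upstream, 66 lay in a region (57.4%), against 102 of 161 proximal pairs (63.4%).

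Upstream peaks shared by both libraries were ordered by their replicate 1 distance to find the farthest. The first lay on chromosome 2 at 92013709 to 92013799, with both centres at -697 bp from ENSMUST00000111294, scores of 9.62 and 18.3, Focus Ratios of 0.765 and 0.8, and no H3K4me3 region closer than 164799 bp. The peak on chromosome 8 at 127321311 to 127321401 followed, at -631 and -690 bp from ENSMUST00000054960 with scores of 8.47 and 13.2, inside an H3K4me3 region. The third was chromosome 12 at 118265734 to 118265824, at -604 and -555 bp, with scores of 6.93 and 17.2 and no region closer than 935866 bp. The fourth was chromosome 10 at 80973169 to 80973259, at -573 and -590 bp, with higher scores of 11.9 and 23.3 and no region closer than 30076 bp. A pair of peaks tied for the next place at -529 bp in replicate 1, and both lay in H3K4me3 regions. One, on chromosome 10 at 79820766 to 79820856, scored 12.3 and 29.4, and the other, on chromosome 3 at 95726659 to 95726749, scored 8.85 and 32.5. None of the upstream peaks of replicate 1 beyond -697 bp was shared.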

How the data were processed

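TAF4b and H3K4me3 lists, 1 per library, were used as deposited. The authors' peak score and, for TAF4b, the Focus Ratio (a fraction) carry HOMER's column names per the file headers. The submitters' processing notes name Bowtie2 2.3.0, SAMtools 1.9, HOMER 4.10 and GRCm39, without settings. The role of IgG in peak calling and the scaling of the score are not given in the sources used here. Depth is unknown. For 1679 of 1679 pairs of features that share a transcript, deposited distances matched the centres on one strand within 2 bp. Distances therefore run from the centre. The match allowed either strand, so it cannot show the direction of the sign, and negative distances were taken as upstream.

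Odds ratios are conditional maximum likelihood estimates with exact 95% intervals. Shares have Clopper-Pearson intervals. Peaks at the median counted as not above it. On simulated tables of the replicate 1 group sizes with a true odds ratio of 2, the mean estimate was 2.00, and with 1 the test passed in 99 of 2000 runs. Regions named were the highest shared, highest unshared, farthest, least and most focused, and those at the limits. The members, lists and tests were chosen with earlier results of these data known. A RefSeq table of another build matched 0 of the 505 transcripts of the members, and no sequence is printed. Analysis ran under Python 3.11.15 with SciPy 1.17.1, pandas 2.3.3 and NumPy 2.4.6, and plotting under matplotlib 3.10.9.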

Additional observations from a re-analysis of the deposited data

How the results depend on the processing

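Of 74 alternatives to the 8 odds ratios, 56 kept both direction and call, 8 lost the threshold, 4 newly passed it and 6 turned direction, the last only where the reported value had not passed. The 56 include the restriction to assembled chromosomes, which could change none of the 8, since the other sequences held no upstream or proximal peak. Each replicate block value is counted once per list. Beyond 200 bp, with fewer peaks, the odds ratios lost the threshold for score (1.40 and 1.08 in replicates 1 and 2), Focus Ratio (0.579 and 0.543) and H3K4me3 in replicate 2 (0.588), and agreement in replicate 2 turned to 0.933. Agreement in replicate 1 passed within 500 bp (1.42), with comparison peaks to 100 bp downstream (1.44), with 1 peak per transcript (1.39) and with centres within 200 bp counted as shared (1.48). Agreement in replicate 2 turned to 0.885 among scores above the list median and 0.863 with score groups as strata. H3K4me3 overlap in replicate 1 turned to 1.02 within 500 bp, 1.26 among scores above the list median and 1.12 with regions within 500 bp. In replicate 2 it was 0.762 with H3K4me3 regions above the median score, no longer past the threshold, and ran from 0.598 to 0.662 leaving out each H3K4me3 replicate (0.713 to 0.944 in TAF4b replicate 1), losing the threshold without H3K4me3 replicate 1. Nothing in the labels ties equal replicate numbers to 1 animal or day. With the replicate block, the odds ratios were 1.58 for score, 0.688 for Focus Ratio, 1.20 for agreement and 0.878 for overlap with same-numbered H3K4me3 regions; the last, which leaves TAF4b replicate 2 the short H3K4me3 list, lost the call. Other causes were not tested. The block counts shared peaks in both lists. With depth unknown, a peak missing from a list may be one not called.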

Other observations

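Few upstream peaks shared their nearest transcript with another TAF4b peak of the list. Another peak of the same list had the same nearest transcript for 10 of the 282 peaks of replicate 1 and 4 of the 348 of replicate 2, against 4 of 460 and 1 of 560 proximal peaks, a difference that was not tested. The transcript named in the authors' promoter annotation differed from the nearest one for 156 upstream peaks of replicate 1 (55.3%) and 189 of replicate 2 (54.3%), against 321 (69.8%) and 400 (71.4%) proximal peaks, also not tested. All 20 chromosomes with peaks in both lists held upstream peaks. Chromosome 7 had the most, 30 of its 86 peaks in replicate 1 and 33 of 81 in replicate 2. Chromosome 18 had the highest share, 12 of 26 (46.2%) and 16 of 31 (51.6%), and chromosomes 9 and 19 in replicate 1 had shares of 16.9% and 16.7%, against 31.5% and 36.6% in replicate 2. These chromosome shares rest on few peaks and were not tested.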
